A study of Mus musculus with 6 samples.

Results

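Gene expression was compared between HOXA9 OFF iGMPs and control iGMPs by bulk RNA-seq, both at 24 h. The comparison rested on 4 of the 6 libraries of the series, 2 titled as HOXA9 OFF and 2 titled as control, and it took in every gene with enough counts to be tested, 12460 of the 34199 gene symbols in the files. iGMPs are granulocyte-macrophage progenitors from C57Bl/6 mouse bone marrow that carry GFP under a lysozyme promoter (Lys-GFP) and were immortalised by HOXA9 fused to the hormone-binding domain of an estrogen receptor, so that the cells self-renew while β-estradiol (E2) is present. All cultures grew in medium with stem cell factor. Control cells were kept with E2 at 150 ng/ml and received IPTG for 24 h, at a concentration not given for these samples. HOXA9 OFF cells were washed and kept without E2 for 24 h. CAF-1 OFF cells, the third group, were kept with E2 and received IPTG at 500 µM, which switches on a short hairpin RNA against Chaf1b. Whether HOXA9 OFF cultures also received IPTG, whether they carry the hairpin, and from which clones these 24 h libraries came was not given in the sources used here (the study mentions independent sub-clones for RNA-seq at a later time), so E2, IPTG and clone cannot be told apart as sources of a difference. Nothing in the labels says that the 2 libraries of a group came from separate cultures, and p-values therefore measure the spread between libraries, which may be technical.

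HOXA9 is a homeobox transcription factor of early haematopoietic cells that is kept high in many acute myeloid leukaemias, where it holds myeloid progenitors in self-renewal together with cofactors such as MEIS1. When a conditional HOXA9 is switched off, progenitors leave self-renewal and mature along the granulocyte and monocyte paths. Granulocytes make their granule proteins in waves, with primary granule enzymes at the progenitor and promyelocyte stage and secondary and tertiary granule proteins later, under factors of the C/EBP family, whereas monocytes depend on PU.1, IRF8 and the receptor CSF1R.

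Gene counts per library ranged from 16773560 to 25170898, at which 3 counts corresponded to 0.118 to 0.182 CPM (counts scaled to the library size by the trimmed mean of M-values, not corrected for gene length). Intervals and bounds given below cover counting error only, as PCR copies of a molecule are counted as separate reads. Genes had to differ by 1.5-fold or more to be called, with a false discovery rate (FDR, the Benjamini-Hochberg adjusted p of edgeR's quasi-likelihood test) under 0.05. Hoxa9 itself had 277 and 214 CPM in control and 356 and 362 CPM in HOXA9 OFF. The study reports that its RNA-seq tracks at a later time lacked coverage of the Hoxa9 untranslated regions, and reads this as expression of the fusion alone. Counts per gene do not separate the fusion from the endogenous gene, and withdrawal of E2 acts on the fusion protein, so they do not check the label. The difference did not pass the test (log2 fold change 0.55 ± 0.17 SE, edgeR FDR 0.0535), but it did without control replicate 1 (0.74). Expression of genes that mark granulocyte-macrophage progenitors was high in the control cells, with 6437 and 4109 CPM for Mpo (myeloperoxidase), 1805 and 1797 CPM for Cd34 and 710 and 542 CPM for Kit. As these are bulk libraries, more or fewer cells of a kind and more or less RNA per cell cannot be told apart.

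Of 12460 genes, 2740 (22%) were called between HOXA9 OFF and control, with 1622 increased (13% of those tested) and 1118 decreased (8.97%). Small changes were balanced and large ones were not. Between 1.5-fold and 2-fold, 628 genes rose and 619 fell. Between 2-fold and 4-fold there were 574 increases and 298 decreases, between 4-fold and 16-fold 301 and 144, and above 16-fold 119 and 57. The share of increases among calls went from 50.4% in the first of these classes to 65.8%, 67.6% and 67.6% in the others. Larger fold changes came from genes with fewer counts, as the median level of tested genes was 28.1 CPM in the class from 1.5-fold to 2-fold and 2.58 CPM above 16-fold. The genes called increased held 10.2% and 9.32% of all gene counts in the control libraries and 21.2% and 20.3% in HOXA9 OFF, and for those called decreased the shares were 10.4% and 11.1% against 5.24% and 5.58%. These shares describe genes chosen by the same contrast. The median log2 fold change over all genes tested was -0.003, and 49.8% of them had a positive value.

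**Figure D1:**
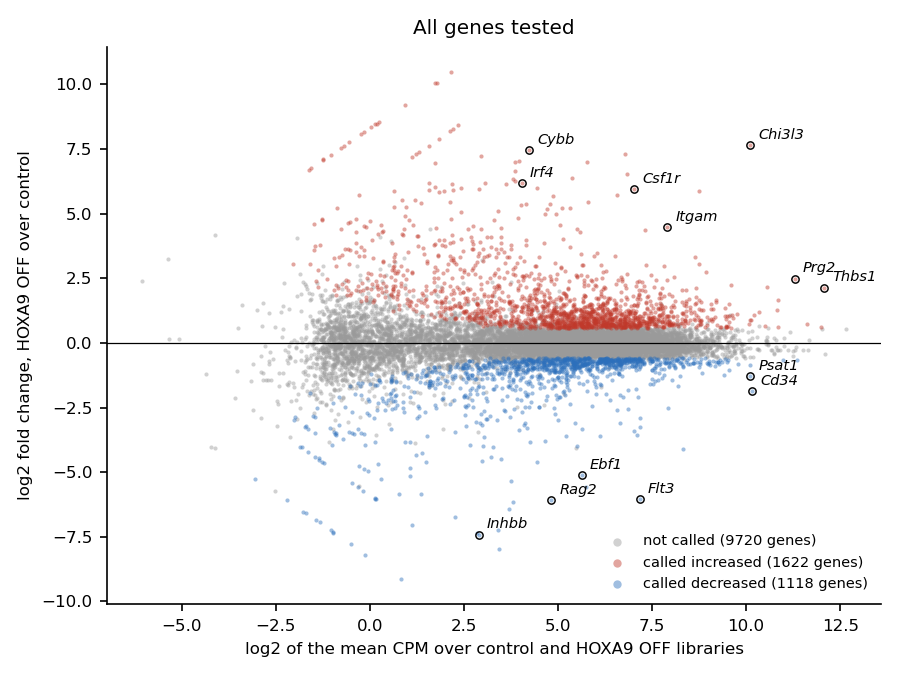
Each point is 1 of the 12460 genes tested, with the log2 of its mean CPM over the 4 libraries on the horizontal axis and its log2 fold change (HOXA9 OFF over control, edgeR) on the vertical axis. Called increases (1622, red) reach further from 0 than called decreases (1118, blue), and the straight streaks at low CPM are genes at or near 0 counts in 1 group, whose fitted values depend on the prior count.

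The genes that mark this comparison moved in opposite directions. Flt3 (chr5:148142317-148212065, protein coding), the receptor for FLT3 ligand on early progenitors, had 237 and 329 CPM in control and 5.02 and 3.46 CPM in HOXA9 OFF. Csf1r, the receptor for macrophage colony-stimulating factor, had 4.05 and 4.24 CPM in control and 215 and 292 CPM in HOXA9 OFF. Neither pair of groups overlapped, and the log2 fold changes were -6.05 ± 0.25 for Flt3 (edgeR FDR 1.02e-04) and 5.94 ± 0.26 for Csf1r (edgeR FDR 1.03e-04). Cybb (chrX:9012378-9064897), the membrane-bound catalytic subunit of the phagocyte NADPH oxidase, had 0.314 and 0.0581 CPM in control (8 and 1 counts) and 51.9 and 23.2 CPM in HOXA9 OFF. Chi3l3 (chr3:105950472-106022425), a chitinase-like secreted protein of granulocytes and macrophages, had 15.8 and 5.63 CPM in control and 2835 and 1569 CPM in HOXA9 OFF. Cybb rose by a log2 fold change of 7.46 ± 0.66 (edgeR FDR 8.93e-04) and Chi3l3 by 7.65 ± 0.58 (edgeR FDR 5.61e-04). In both genes HOXA9 OFF replicate 1 was the higher of its group, and the size of the change depended on single libraries, with a range from 6.77 to 9.18 for Cybb and from 7.12 to 8.60 for Chi3l3 when each library was left out in turn.

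**Figure D2:**
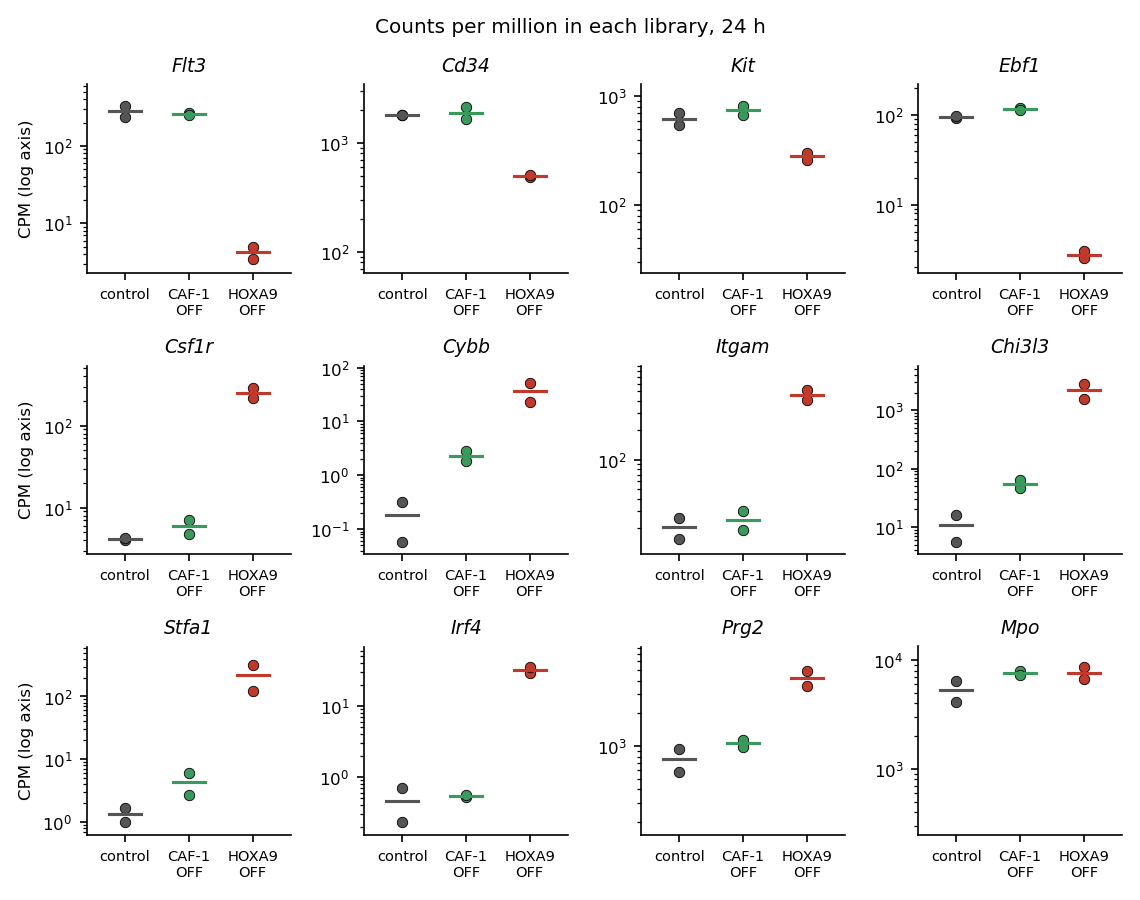
CPM on a log axis for 12 genes in each of the 6 libraries, with control in grey, CAF-1 OFF in green and HOXA9 OFF in red; points are libraries and bars the means of 2. Flt3, Cd34, Kit and Ebf1 lie lower in both HOXA9 OFF libraries than in the other 4, the next 7 genes lie higher, and Mpo overlaps between HOXA9 OFF and CAF-1 OFF.

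Among genes of the progenitor state and genes known to act with HOXA9, decreases outnumbered increases. Of 30 tested members of this list, 14 fell and 1 rose, 10 had a positive value, with a median log2 fold change of -0.51. Among receptors and surface proteins, Cd34 fell from 1805 and 1797 CPM to 484 and 507 CPM (-1.86 ± 0.13, edgeR FDR 4.82e-04) and Kit, the receptor for stem cell factor, from 710 and 542 CPM to 300 and 262 CPM (-1.16 ± 0.16, edgeR FDR 3.66e-03). The libraries of each group lay close together and the groups were apart. Angpt1 (chr15:42256273-42508523), which encodes the TIE2 ligand angiopoietin, went from 153 and 102 CPM to 11.8 and 8.97 CPM, a log2 fold change of -3.61 ± 0.26 (edgeR FDR 4.76e-04). Among transcription factors, Hlf (chr11:90197849-90252231), a factor of stem and early progenitor cells, went from 264 and 245 CPM to 19.7 and 23.2 CPM (-3.57 ± 0.15, edgeR FDR 1.02e-04). Sox4 went from 75.3 and 105 CPM to 8.01 and 10.1 CPM, and Meis1, the cofactor of HOXA9, from 42.8 and 56.3 CPM to 11 and 13.5 CPM. Both passed the test, with log2 fold changes of -3.32 and -2.02. Myc and Myb fell less, by 0.91 and 0.68 on the log2 scale. The member that rose was Ikzf2 (Helios, an Ikaros-family factor), with 21.6 and 12.7 CPM in control and 66.4 and 48.9 CPM in HOXA9 OFF (1.74 ± 0.27, edgeR FDR 4.61e-03). Ikzf2 had 49.8 and 46.2 CPM in CAF-1 OFF and did not pass the test between HOXA9 OFF and CAF-1 OFF (0.27, edgeR FDR 0.473).

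Transcription factors of the myeloid lineage were mostly higher. Of 37 tested, 22 rose and 3 fell, against 13% and 8.97% of all genes tested, with a median log2 fold change of 1.40. Irf4 (chr13:30841095-30858796), an interferon regulatory factor of monocytes and lymphocytes, had 0.236 and 0.697 CPM in control and 29.2 and 35.5 CPM in HOXA9 OFF, and Irf8, which directs monocyte fate, had 35.6 and 26.9 CPM in control and 178 and 175 CPM in HOXA9 OFF. The HOXA9 OFF libraries lay close together and well apart from control (log2 fold changes 6.20 ± 0.40 and 2.49 ± 0.41, edgeR FDR 3.75e-04 and 6.05e-03). The Irf4 value was 5.52 without control replicate 1 and 7.06 without control replicate 2. Klf2 (chr8:74842932-74845555), a Krüppel-like factor, rose from 0.314 and 0.290 CPM to 12.3 and 8.43 CPM (5.06 ± 0.44, edgeR FDR 8.03e-04). Sfpi1, the gene of PU.1, rose from 187 and 155 CPM to 560 and 440 CPM. Among C/EBP factors, Cebpa was level, with 233 and 273 CPM in control and 265 and 250 CPM in HOXA9 OFF (0.03 ± 0.24, edgeR FDR 0.946). Cebpe, the factor of late granulocyte genes, rose from 112 and 78.1 CPM to 385 and 247 CPM (1.73 ± 0.25, edgeR FDR 3.72e-03), and Cebpd and Cebpb rose by 2.12 and 0.74. Maf, a factor of macrophages, differed between the HOXA9 OFF libraries, with 1.93 and 39.0 CPM against 0.314 and 0.929 CPM in control. Its log2 fold change of 5.10 ± 1.37 passed the test (edgeR FDR 0.0318), but was 1.68 and no longer called without HOXA9 OFF replicate 2, and the call was also lost without either control library. The decreases were those of Gfi1, a repressor needed for granulocyte development (404 and 394 CPM to 248 and 209 CPM, -0.80 ± 0.11, edgeR FDR 3.53e-03), Egr1 and Cebpg. The list had 1 decrease without HOXA9 OFF replicate 1 and 1 without control replicate 2.

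Granule protein genes mostly had positive values, with larger ones in the list of late stages, and the difference between the lists was not tested. Of 18 tested primary granule genes, 8 rose and 1 fell, with a median log2 fold change of 0.76, and 5 rose without control replicate 2. Mpo did not pass the test (6437 and 4109 CPM in control, 8546 and 6673 CPM in HOXA9 OFF, edgeR FDR 0.112) except without control replicate 1 (0.88), nor did Elane (neutrophil elastase) or Prtn3 (proteinase 3). Ctsg, cathepsin G, fell from 3275 and 3213 CPM to 2077 and 1984 CPM (-0.68 ± 0.12, edgeR FDR 7.78e-03). Fcnb (ficolin B), Hdc (histidine decarboxylase, a cytosolic enzyme) and Clec12a (a lectin receptor of the cell surface) rose by 2.54, 2.19 and 2.11 on the log2 scale, and neither of the latter is a granule protein. Of 28 tested genes in the secondary and tertiary granule list, 27 rose and 0 fell. The median was 3.61, the highest of the 22 lists described here. Several members, such as the stefins, S100 proteins and Padi4, are not granule proteins, so these counts describe late granulocyte genes more widely. A further 7 list members were below the count filter.

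Several members of this last list were near the counting floor in control, while 13 had a mean of at least 5 CPM there. Camp, the cathelicidin precursor, had 0.393 and 0.348 CPM in control and 38.5 and 19.2 CPM in HOXA9 OFF, and Ltf, lactoferrin, had 0.471 and 0.174 CPM in control and 31.9 and 17.1 CPM in HOXA9 OFF. S100a8, a calcium-binding alarmin subunit, had 2.51 and 2.32 CPM in control and 308 and 147 CPM in HOXA9 OFF. In each of these genes both HOXA9 OFF libraries stood far above control, and replicate 1 was the higher of them. Stfa1 (chr16:36277213-36285457), a stefin-type cysteine protease inhibitor, rose from 1.69 and 0.987 CPM to 314 and 124 CPM, and BC100530, a neighbour of the same family, from 0.314 and 0.116 CPM to 43.4 and 19.0 CPM. Stefin genes have near-identical copies, and reads that fit several places were not counted, so their split within the family is uncertain. The log2 fold changes of Stfa1 and BC100530 were 6.48 and 6.33 without HOXA9 OFF replicate 1. At the other end, Stfa1 stood at 7.82 without HOXA9 OFF replicate 2 and BC100530 at 7.98 without control replicate 1. Olfm4 (olfactomedin 4) had 0.825 and 0.871 CPM in control and 109 CPM in both HOXA9 OFF libraries. The member that did not pass the test was Mmp8, neutrophil collagenase, with 70.1 and 40.5 CPM in control and 56.6 and 62.0 CPM in HOXA9 OFF (0.10 ± 0.35, edgeR FDR 0.866). Mmp8 had 332 and 630 CPM in CAF-1 OFF and was lower in HOXA9 OFF than there (-3.02, edgeR FDR 2.35e-03). Lyz1 and Lyz2, the lysozyme genes, are near-identical copies. Lyz1 had 2 and 7 counts in control and 269 and 735 counts in HOXA9 OFF, and Lyz2 was listed at 0 in control and at 4 and 4 counts in HOXA9 OFF, so neither value is a reliable level.

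The C/EBP binding sequence was common before the start of these genes. The letters TTGCNNAA, searched on both strands from 250 bases before to 50 after the annotated start in NCBIM37 (mm9), were found in 12 of 28 promoters of the secondary and tertiary granule list (42.9%) and in 8.71% of the 12390 promoters of tested genes that could be placed. The members were Adam8, Chi3l4, Hp, Lcn2, Ltf, Mmp8, Mmp9, Ngp, Padi4, S100a9, Slpi and Stfa1, and Mmp8, the member that was not called, was among them. The 150 bases before the start are shown for the 3 called members with the largest increase that hold a match there, so that its place can be seen, and for Flt3, which fell and holds none. Capitals mark the match.
Stfa1 (chr16:36277063-36277212, plus strand): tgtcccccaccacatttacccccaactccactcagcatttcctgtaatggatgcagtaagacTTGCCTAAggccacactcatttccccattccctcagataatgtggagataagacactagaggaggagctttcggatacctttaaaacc
Ltf (chr9:110921646-110921795, plus strand): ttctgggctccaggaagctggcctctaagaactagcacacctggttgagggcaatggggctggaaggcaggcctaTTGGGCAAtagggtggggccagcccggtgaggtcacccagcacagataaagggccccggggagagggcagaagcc
Ngp (chr9:110322104-110322253, plus strand): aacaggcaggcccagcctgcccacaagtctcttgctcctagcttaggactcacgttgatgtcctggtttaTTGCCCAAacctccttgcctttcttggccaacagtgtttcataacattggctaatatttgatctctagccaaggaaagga
Flt3 (chr5:148212066-148212215, minus strand): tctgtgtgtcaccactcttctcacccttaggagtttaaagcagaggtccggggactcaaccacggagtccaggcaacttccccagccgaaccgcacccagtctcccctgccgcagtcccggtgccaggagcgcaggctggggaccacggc

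In these stretches the match begins 88 bases before the start in Stfa1, 75 in Ltf and 80 in Ngp, the granule protein known as neutrophilic granule protein. Over larger sets, the C/EBP letters were present in 11.1% of promoters of called increases and in 22.4% of those that increased over 16-fold (26 of 116), against 8.63% for called decreases. Among other lists, they were in 5 of 18 primary granule genes (27.8%) and 10 of 54 lysosome genes (18.5%), but in 1 of 54 mitosis genes (1.85%). The PU.1 letters GAGGAAGT were present in 3.25% of all promoters, 5.72% of increases, 2.88% of decreases and in 6 of 41 monocyte and macrophage genes (14.6%), among them Ctss and Fcgr4. These letters were in 4 of 28 secondary and tertiary granule genes (14.3%), 4 of 18 primary granule genes (22.2%) and 2 of 8 NADPH oxidase genes (25%), and also in 5 of 57 ribosome biogenesis genes (8.77%), a list with decreases and no increase. The AP-1 letters TGANTCA were present in 4.92% of all promoters, 7.28% of increases, 3.95% of decreases and 16.4% of increases over 16-fold. Their highest share among the lists was in interferon-stimulated genes, 12 of 43 (27.9%). The E2F letters TTCCCGCC were present in 4.08% of all promoters and in 9 of 56 DNA replication genes (16.1%), and those of a HOXA9-PBX site, TGATTTAT, in 0.484% of all promoters, 0.435% of increases and 0.719% of decreases. Some of these promoter sets were poorer in G and C, with a median of 51.0% in the secondary and tertiary granule list and 49.5% in increases over 16-fold against 59.7% over all, while the DNA replication list had 60.2%, and the part of base composition in these shares was not tested. A match describes letters in a window and not binding.

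**Figure D3:**
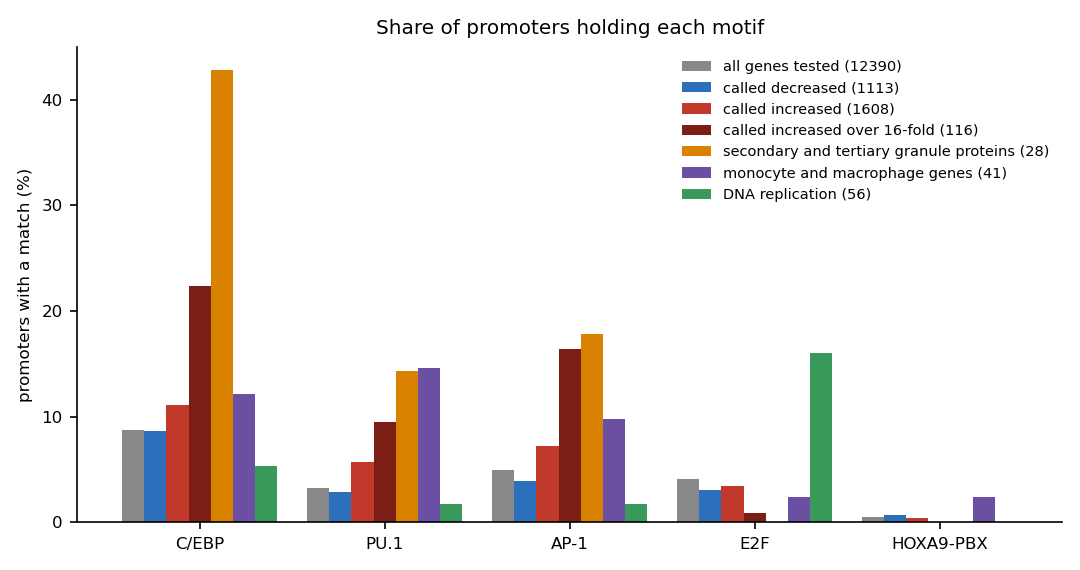
Percentage of promoters (250 bases before to 50 after the start) holding each of 5 motifs, for all genes tested and for 6 sets, with the number of promoters in parentheses. The C/EBP bar of the secondary and tertiary granule list stands at 42.9% against 8.71% for all genes, and the E2F bar of the DNA replication list at 16.1% against 4.08%.

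Monocyte and macrophage genes mostly rose. Of 41 tested, 31 rose and 1 fell, with a median log2 fold change of 2.43. Beside Csf1r, the genes included Emr1, the macrophage marker F4/80 (40.7 and 19.6 CPM in control, 180 and 148 CPM in HOXA9 OFF), and Ly6c2, the Ly6C antigen (28.9 and 17.2 CPM against 122 and 74.6 CPM). Both stood above control in each HOXA9 OFF library, with log2 fold changes of 2.43 and 2.08. Clec4a1 (chr6:122871866-122884637), a C-type lectin receptor, had 1 and 0 counts in control and 115 and 246 counts in HOXA9 OFF, a ratio of 391 (95% counting interval 69.8 to 15505), and Ms4a7, a membrane protein of macrophages, had 0.0786 and 0.406 CPM in control and 3.04 and 29.6 CPM in HOXA9 OFF. The Ms4a7 call was lost without control replicate 1, and its log2 fold change of 6.17 was 3.73 without HOXA9 OFF replicate 2. The decrease was that of Ccr2, a chemokine receptor of inflammatory monocytes, with 346 and 539 CPM in control and 67.2 and 212 CPM in HOXA9 OFF (-1.67 ± 0.51, edgeR FDR 0.0469). This call was lost without HOXA9 OFF replicate 1 (-1.07), without either control library, and in a fit to the 4 libraries alone. F13a1, coagulation factor XIII subunit A of monocytes, did not pass the test, at 1014 and 1017 CPM in control and 1160 and 2027 CPM in HOXA9 OFF (edgeR FDR 0.124), but was called with DESeq2 (0.65), without a filter (0.64) and without HOXA9 OFF replicate 1 (0.99).

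The NADPH oxidase, which makes superoxide in phagocytes, rose in 6 of its 8 tested components. Apart from Cybb, the rises were modest. Cyba, the partner of Cybb in the membrane, went from 328 and 299 CPM to 656 and 484 CPM (0.86), the cytosolic subunit Ncf1 from 282 and 243 CPM to 666 and 598 CPM (1.27 ± 0.13, edgeR FDR 1.40e-03), and the proton channel Hvcn1 from 62.5 and 75.6 CPM to 195 and 191 CPM (1.48 ± 0.12, edgeR FDR 6.30e-04). Rac2, the GTPase of the complex, was below the fold minimum at 0.53 (edgeR FDR 0.0261) and was called without HOXA9 OFF replicate 2 (0.64).

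Receptors that sense microbes and their adaptors rose in 26 of 40 tested members and fell in 2, against 13% and 8.97% of all genes tested. The median log2 fold change was 1.55. Tlr8 (chrX:163680626-163702261), a sensor of single-stranded RNA in endosomes, was at 0 counts in both control libraries and at 114 and 129 counts in HOXA9 OFF, which is at least 45.6-fold higher when compared with 3 counts per control library. Tlr13, a sensor of bacterial ribosomal RNA, had 2 and 3 counts in control and 115 and 205 counts in HOXA9 OFF, a ratio of 69.4 (95% counting interval 29.4 to 215). Tlr2, a receptor for bacterial lipoproteins, rose from 8.29 and 7.31 CPM to 46.0 and 72.8 CPM, and Nlrp3, the inflammasome sensor, from 4.71 and 4.70 CPM to 84.0 and 98.8 CPM. The endosomal receptors Tlr7 and Tlr9 rose as well, whereas Tlr4, the endotoxin receptor, had 93.0 and 60.4 CPM in control and 84.7 and 92.2 CPM in HOXA9 OFF (0.20, edgeR FDR 0.587). The decreases were those of the neighbouring lectin receptors Clec4e (Mincle, 112 and 113 CPM to 35.5 and 58.1 CPM, -1.27 ± 0.25, edgeR FDR 0.0108) and Clec4d, and the list had 1 decrease without HOXA9 OFF replicate 1 and 1 without control replicate 2.

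Adhesion and chemotaxis receptors rose in 16 of 27 tested members and fell in 2, against 13% and 8.97% of all genes tested. Itgam (chr7:135206154-135271674), the CD11b integrin chain of myeloid cells, went from 25.1 and 15.6 CPM to 513 and 404 CPM (4.49 ± 0.32, edgeR FDR 4.75e-04), and its partner chain Itgb2 from 87.0 and 71.8 CPM to 509 and 423 CPM (2.55). Ccr1, a chemokine receptor of granulocytes and monocytes, went from 2.24 and 1.92 CPM to 68.9 and 87.8 CPM (5.22 ± 0.20, edgeR FDR 1.02e-04). Cxcr2, the neutrophil chemokine receptor, rose by 3.33. The complement receptor C3ar1 was uneven, with 0 and 1 counts in control and 31 and 265 counts in HOXA9 OFF, a ratio of 321 (95% counting interval 57.2 to 12721), and its call was lost without either control library. Itgb1 had 464 and 432 CPM in control and 383 and 391.9 CPM in HOXA9 OFF (edgeR FDR 0.147). The decreases, Ccr2 and Ccr7, were both lost without HOXA9 OFF replicate 1 and without control replicate 2.

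Among 35 tested receptors for growth factors and cytokines, 15 rose and 4 fell (Flt3, Kit, Igf2r and Il10rb), with 2 decreases without HOXA9 OFF replicate 1 and 2 without control replicate 2. Of all genes tested, 13% rose and 8.97% fell. Receptors for the colony-stimulating factors rose together. Csf3r, the granulocyte factor receptor, went from 41.5 and 33.6 CPM to 108 and 94.5 CPM, Csf2ra, the alpha chain of the GM-CSF receptor, from 65.6 and 63.1 CPM to 204 and 220 CPM, and the shared beta chain Csf2rb from 155 and 131 CPM to 405 and 381 CPM. Their log2 fold changes were 1.43, 1.72 and 1.46, and no library of one group reached the other. Il10ra, the interleukin-10 receptor, had 0 and 1 counts in control and 77 and 135 counts in HOXA9 OFF, a ratio of 229.9 (95% counting interval 40.8 to 9123). Igf2r, the mannose 6-phosphate receptor, was uneven in control at 1.61 and 17.4 CPM, with 0 and 0.182 CPM in HOXA9 OFF, and its call was lost without either HOXA9 OFF library or without control replicate 2. Ifngr1 did not pass the test (243 and 194 CPM, 320 and 259 CPM, edgeR FDR 0.138).

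Lysosome genes rose in most cases. All 55 tested members had a positive log2 fold change, 38 rose, 0 fell, and the median was 0.87. Among proteases, Ctss, cathepsin S, went from 0.707 and 1.63 CPM to 43.6 and 71.4 CPM (5.68 ± 0.41, edgeR FDR 4.93e-04), and Ctsb, cathepsin B, from 217 and 237 CPM to 597 and 749 CPM (1.57). Psap, the precursor of the sphingolipid activators, went from 504 and 594 CPM to 1830 and 3053 CPM (2.15), and the membrane protein Lamp1 from 256 and 326 CPM to 750 and 1000 CPM (1.59). The Ctss value was 6.33 without control replicate 2. Each of these was higher in HOXA9 OFF replicate 2 than in replicate 1, and both lay above control. Tfeb, a transcription factor that drives lysosomal genes, had 9.11 and 10.4 CPM in control and 23.3 and 22.1 CPM in HOXA9 OFF (1.22). Gusb, beta-glucuronidase, was below the fold minimum (564 and 527 CPM, 778 and 811 CPM, 0.54 ± 0.10, edgeR FDR 7.68e-03). Genes of this list took 0.756% and 0.846% of all gene counts in control and 1.38% and 1.81% in HOXA9 OFF.

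Interferon-stimulated genes rose in 21 of 43 tested members and fell in 2, against 13% and 8.97% of all genes tested, with a median log2 fold change of 0.99. Isg15, a ubiquitin-like modifier, went from 0.628 and 0.581 CPM to 2.17 and 2.73 CPM, and Irf7 from 0.903 and 1.39 CPM to 2.51 and 3.58 CPM. The count depended on the libraries and the filter. It was 7 without HOXA9 OFF replicate 2, 9 without control replicate 1, 10 without control replicate 2 and 9 when a mean of 5 CPM was required. The decreases, Ifitm3 (73.5 and 94.9 CPM to 44.0 and 55.2 CPM, edgeR FDR 0.0468) and Rtp4, were both lost when any of the 4 libraries was left out and with the replicate number as a block. Genes of antigen presentation by MHC class II rose in 4 of 10 tested members (H2-DMb1, H2-DMb2, H2-Oa and Cd80), with 2 called without HOXA9 OFF replicate 1, 2 without control replicate 1 and 1 with a mean of 5 CPM required; Cd80 and H2-DMb2 also lost their calls without control replicate 2, and Cd74, the invariant chain, had 0 and 0.290 CPM in control and 0.579 and 3.94 CPM in HOXA9 OFF without passing the test (edgeR FDR 0.0668).

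**Figure D4:**
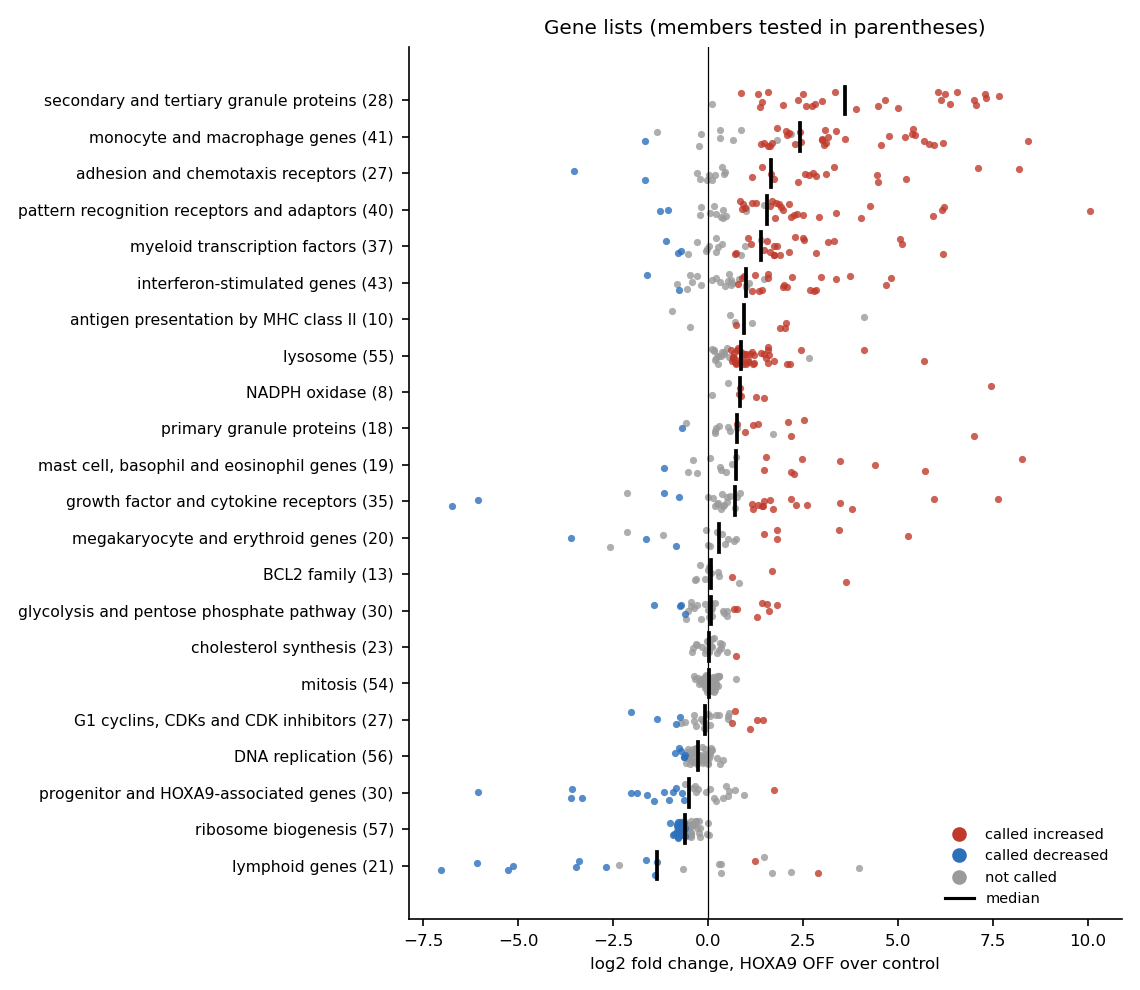
Log2 fold changes (HOXA9 OFF over control) of the tested members of 22 gene lists, 1 point a gene, with called increases in red, called decreases in blue, others in grey and the median as a black bar. Secondary and tertiary granule genes (median 3.61) stand at the top, the 54 mitosis genes form a narrow grey cloud around 0, and ribosome biogenesis genes lie almost all to the left of 0.

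Few genes of mitosis and DNA replication were called. Of 54 tested genes of mitosis, 0 were called with edgeR's quasi-likelihood test and the median log2 fold change was 0.02, and 1 increase was called by DESeq2, by the edgeR exact test, without a filter and in the 4-library fit. Top2a, the DNA topoisomerase of dividing cells, had 923 and 790 CPM in control and 880 and 829 CPM in HOXA9 OFF (0.00 ± 0.16, edgeR FDR 0.990). Of 56 tested DNA replication genes, 0 rose and 6 fell (Pold2, Dut, Gins2, Orc1, Chaf1b and Tyms), a share near that of decreases among all genes tested (8.97%). Their median was -0.27, and 10 of the 56 had a positive value, against 49.8% of all genes tested. Pold2, a subunit of DNA polymerase delta, went from 175 and 171 CPM to 97.3 and 91.5 CPM (-0.88 ± 0.10, edgeR FDR 1.71e-03). Mcm6, a subunit of the replicative helicase, had 1148 and 698 CPM in control and 959 and 564 CPM in HOXA9 OFF, so that replicate 1 was the higher in both groups (-0.28 ± 0.30, edgeR FDR 0.520). The number of decreases was 12 when libraries were scaled by size alone and 1 without HOXA9 OFF replicate 2 or without control replicate 2. Chaf1b (chr16:93884146-93906360), the CAF-1 subunit targeted in the CAF-1 OFF cells, had 90.0 and 105 CPM in control and 64.6 and 61.4 CPM in HOXA9 OFF (-0.63 ± 0.18, edgeR FDR 0.0396), and its call was lost when any 1 of the 4 libraries was left out.

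In the G1 group, 5 of 27 tested members rose and 4 fell, against 13% and 8.97% of all genes tested, a gap of few genes. Ccnd2 (chr6:127075797-127101066), cyclin D2, went from 335 and 286 CPM to 124 and 120 CPM (-1.35 ± 0.12, edgeR FDR 9.09e-04) and Cdk4, its kinase partner, from 757 and 888 CPM to 464 and 522 CPM (-0.74). Ccnd3, cyclin D3, went the other way, from 70.4 and 62.1 CPM to 158 and 127 CPM (1.10), as did E2f2 (27.1 and 27.0 CPM to 67.6 and 65.5 CPM, 1.30 ± 0.11, edgeR FDR 6.34e-04). These 4 genes had non-overlapping groups. Ccnd1 was lower at 6.13 and 12.1 CPM against 2.36 and 2.06 CPM, but its call was lost with the replicate block and without either HOXA9 OFF library or control replicate 2. Among inhibitors, Cdkn2d rose (1.45) and Cdkn1a fell (-0.84, edgeR FDR 0.0472). Fewer members were called, in both directions, without either HOXA9 OFF library and without control replicate 2. With the replicate block 2 decreases remained.

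Ribosome biogenesis, the making of ribosomal RNA and its assembly into subunits in the nucleolus, was mostly lower. Of 57 tested members, 26 fell and 0 rose, 2 had a positive value, and the median log2 fold change was -0.61. Polr1b, a subunit of RNA polymerase I, went from 121 and 116 CPM to 59.9 and 66.1 CPM (-0.91 ± 0.12, edgeR FDR 2.73e-03), and Rrp9, a protein of the U3 small nucleolar complex, from 103 and 113 CPM to 53.4 and 53.4 CPM (-1.01 ± 0.11, edgeR FDR 1.77e-03). Ncl, nucleolin, went from 2553 and 2349 CPM to 1607 and 1511 CPM and Npm1, nucleophosmin, from 1089 and 1148 CPM to 635 and 625 CPM. In these genes the libraries of each group lay close together and the groups did not overlap. Ubtf, a factor of RNA polymerase I transcription, did not pass the test (-0.32 ± 0.10, edgeR FDR 0.0535). The list took 1.36% and 1.35% of all gene counts in control and 0.817% and 0.855% in HOXA9 OFF.

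Of 30 tested genes of glycolysis and the pentose phosphate pathway, 7 rose and 4 fell, against 13% and 8.97% of all genes tested. G6pdx (chrX:71654822-71674533), which makes NADPH at the entry of the pentose phosphate pathway, went from 121 and 112 CPM to 414 and 400 CPM (1.81 ± 0.11, edgeR FDR 2.80e-04), and Pgd, the next NADPH-producing enzyme, from 1089 and 1018 CPM to 2600 and 2558 CPM (1.29). Tkt, transketolase of the later, non-oxidative steps, had 1739 and 1662 CPM in control and 1821 and 1821 CPM in HOXA9 OFF (0.10 ± 0.09, edgeR FDR 0.426). The lactate transporters Slc16a1 (293 and 298 CPM to 104 and 115 CPM, -1.44 ± 0.10, edgeR FDR 4.75e-04) and Slc16a3, the glycolytic enzyme Eno1 and Pfkp fell, and 1 decrease was called without HOXA9 OFF replicate 1 and 1 without control replicate 2. Of 23 tested cholesterol synthesis genes 1 was called, Mvd, which rose by 0.74 ± 0.14 and lost its call without HOXA9 OFF replicate 2 or control replicate 1.

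The BCL2 family, which sets the threshold for apoptosis, showed 3 increases among 13 tested members (13% of all genes tested rose) and 0 decreases. Of these, Pmaip1, lost its call without either HOXA9 OFF library and without control replicate 2. Bmf (chr2:118354493-118375423), a BH3-only protein, went from 1.57 and 1.74 CPM to 22.7 and 18.7 CPM (3.64 ± 0.24, edgeR FDR 4.05e-04). Mcl1, an anti-apoptotic member, was near its control level (243 and 268 CPM, 291 and 334 CPM, edgeR FDR 0.0947). Bcl2 itself was split by library number in both groups, with 105 and 31.4 CPM in control and 82.8 and 25.2 CPM in HOXA9 OFF (edgeR FDR 0.732).

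Genes of other blood lineages moved in different directions. Lymphoid genes were the group with the lowest median, -1.34 over 21 tested members (-0.65 with members at 0 counts in 1 group set at their bound). Of the 21, 10 fell while 2 rose, against 8.97% and 13% of all genes tested. Ebf1 (chr11:44430819-44821593), a transcription factor of early B cells, had 94.0 and 98.5 CPM in control and 2.51 and 3.03 CPM in HOXA9 OFF (-5.12 ± 0.14, edgeR FDR 5.63e-05). Rag2 (chr2:101464875-101472685), of the recombinase that rearranges antigen receptor genes, went from 42.3 and 68.8 CPM to 0.627 and 1.03 CPM (-6.08 ± 0.38, edgeR FDR 3.22e-04), and Igll1, of the surrogate light chain, from 121 and 356 CPM to 11.4 and 34.1 CPM (-3.40 ± 0.67, edgeR FDR 0.0110), which was -2.43 without control replicate 2 and -4.38 without HOXA9 OFF replicate 2. The control cells thus held transcripts of early B-lineage genes, and a further 19 list members were below the filter. Among the genes that did not fall, Cd79b had 34.7 and 47.5 CPM in control and 48.3 and 55.8 CPM in HOXA9 OFF (edgeR FDR 0.254), and Blnk, a B-cell and macrophage adaptor, rose. The number of increases was 1 without control replicate 2, 4 with DESeq2 or in the 4-library fit, and 5 with the exact test or without a filter. The number of decreases was 5 without HOXA9 OFF replicate 1, without control replicate 2, or with a mean of 5 CPM required.

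Genes of mast cells, basophils and eosinophils rose in 9 of 19 tested members and fell in 1 (Kit), against 13% and 8.97% of all genes tested. Several of the increases were in genes of eosinophil granules and receptors, and Alox15, a lipoxygenase, rose as well. Prg2 (chr2:84820618-84823789), major basic protein, went from 933 and 582 CPM to 4927 and 3560 CPM (2.49 ± 0.26, edgeR FDR 1.42e-03), Epx, eosinophil peroxidase, from 4.87 and 1.92 CPM to 235 and 137 CPM (5.72 ± 0.47, edgeR FDR 6.63e-04, but 6.59 without control replicate 1), and Il5ra, the interleukin-5 receptor, from 2.16 and 1.34 CPM to 19.9 and 19.4 CPM (3.46). The mast cell protease genes Cpa3 (158 and 128 CPM, 204 and 276 CPM, edgeR FDR 0.216), Cma1 and Tpsb2 and the basophil protease Mcpt8 did not pass the test, though Cpa3 was called without a filter and in the 4-library fit (0.74 in both). Ear2 and Ear6, eosinophil ribonucleases, rose too but belong to a family of near-identical copies. Of 20 tested megakaryocyte and erythroid genes, 5 rose and 3 fell, against 13% and 8.97% of all genes tested, with 14 further members below the filter, and 3 rose without control replicate 2 or with a mean of 5 CPM required. Car2, carbonic anhydrase, fell from 61.9 and 75.4 CPM to 5.64 and 5.58 CPM (-3.61 ± 0.21, edgeR FDR 2.80e-04). Gfi1b and Gata1, factors of this lineage, rose from 0.550 and 0.348 CPM to 6.32 and 3.70 CPM and from 4.75 and 2.44 CPM to 15.5 and 10.1 CPM, and neither passed the test between HOXA9 OFF and CAF-1 OFF (edgeR FDR 0.198 and 0.0595). Gata1 lost its call against control without HOXA9 OFF replicate 1 or control replicate 2.

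Some genes went from near silence to a clear level or back. There were 13 genes with at most 3 counts in each control library that reached a mean of at least 5 CPM in HOXA9 OFF, and all 13 were called. By CPM the leading ones were Clec4a1, Ear6 (273 and 88 counts in HOXA9 OFF) and Tlr13. Lilrb4, an inhibitory receptor of myeloid cells, had 0 counts in both control libraries and 78 and 234 counts in HOXA9 OFF, at least 61.5-fold higher against 3 counts per library, and AI607873, at 0 in control and 36 and 197 counts in HOXA9 OFF, was at least 46.9-fold higher. Both bounds rested mainly on HOXA9 OFF replicate 2, and replicate 1 alone, a value added after seeing the data, gave at least 25.8-fold for Lilrb4 and 11.9-fold for AI607873. AI607873 lost its call without either control library. DESeq2 did not call Lilrb4 or AI607873. In the other direction, 5 genes with at most 3 counts in each HOXA9 OFF library had a mean of at least 5 CPM in control. 8430408G22Rik (chr6:116600702-116602865) had 390 and 476 counts in control and 3 and 0 in HOXA9 OFF, a ratio of 266 (95% counting interval 90.8 to 1293). Inhbb, the activin beta-B subunit, had 452 and 202 counts in control and 2 and 1 in HOXA9 OFF, a ratio of 201 (68.5 to 977), and Accn4, an ion channel subunit, 337 and 262 counts in control and 1 and 2 in HOXA9 OFF, a ratio of 184 (62.7 to 895). The fitted log2 value of 8430408G22Rik was -11.71 without HOXA9 OFF replicate 1 and -7.14 without replicate 2, and that of Accn4 was -6.80 and -8.03 in the same order. Igf2r and Gcnt4, a glycan-branching enzyme, completed the set. Gpr12, Myo16 and Myh7b also fell by over 6 on the log2 scale, from between 18.5 and 36.0 CPM in control to under 0.5 CPM. The Myo16 value was -5.72 without HOXA9 OFF replicate 1 and -7.41 without replicate 2, that of Gpr12 was -8.30 and -6.72 in the same order, and that of Myh7b was -5.62 without control replicate 2.

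Among the genes with the most counts, the called increases were Thbs1, thrombospondin (1859 and 1307 CPM to 7368 and 6573 CPM, 2.14 ± 0.22, edgeR FDR 1.49e-03), Actb, Plac8, Prg2 and Tmsb4x, thymosin beta 4 (1027 and 751 CPM to 3159 and 2454 CPM, 1.66 ± 0.20, edgeR FDR 2.24e-03). Actb and Plac8 changed by 0.61 and 0.75 and lost their calls when single libraries were left out, Actb without 3 of the 4. The called decreases were Ctsg, Ncl, Cd34, Hspa9 and Psat1, an enzyme of serine synthesis (1511 and 1595 CPM to 606 and 681 CPM, -1.27 ± 0.10, edgeR FDR 5.90e-04).

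The HOXA9 OFF libraries were not alike in every group of genes. Among list members with a mean of at least 5 CPM in HOXA9 OFF, replicate 1 was the higher in 23 of 26 secondary and tertiary granule genes, 15 of 17 primary granule genes and 13 of 16 genes of mast cells, basophils and eosinophils. Replicate 2 was the higher in 20 of 32 monocyte and macrophage genes, 42 of 54 lysosome genes, 25 of 35 microbial sensors and adaptors and 19 of 25 interferon-stimulated genes. Over all 9589 such genes the split was 4848 and 4741. In 8 monocyte and macrophage genes replicate 2 was over 2-fold higher, and in 0 of them was replicate 1. In replicate 1, 5 secondary and tertiary granule genes were over 2-fold higher, and 0 in replicate 2. Over all 9589 genes, 37 were over 2-fold higher in replicate 1 and 129 in replicate 2. Gpnmb, a glycoprotein of macrophages, had 3.67 and 104 CPM. Mitosis genes were a little higher in replicate 1 (49 of 53, median log2 difference 0.16). Control replicate 1 was the higher control in 10 of 13 secondary and tertiary granule genes, 13 of 16 primary granule genes and 41 of 53 mitosis genes. For genes of mast cells, basophils and eosinophils it was 11 of 12. It was the higher in 15 of 51 lysosome genes and 7 of 18 monocyte and macrophage genes. For microbial sensors and adaptors it was 14 of 25, and for interferon-stimulated genes 9 of 17. What sets the libraries apart was not tested, and with 1 library on each side no test of this difference can be had.

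**Figure D5:**
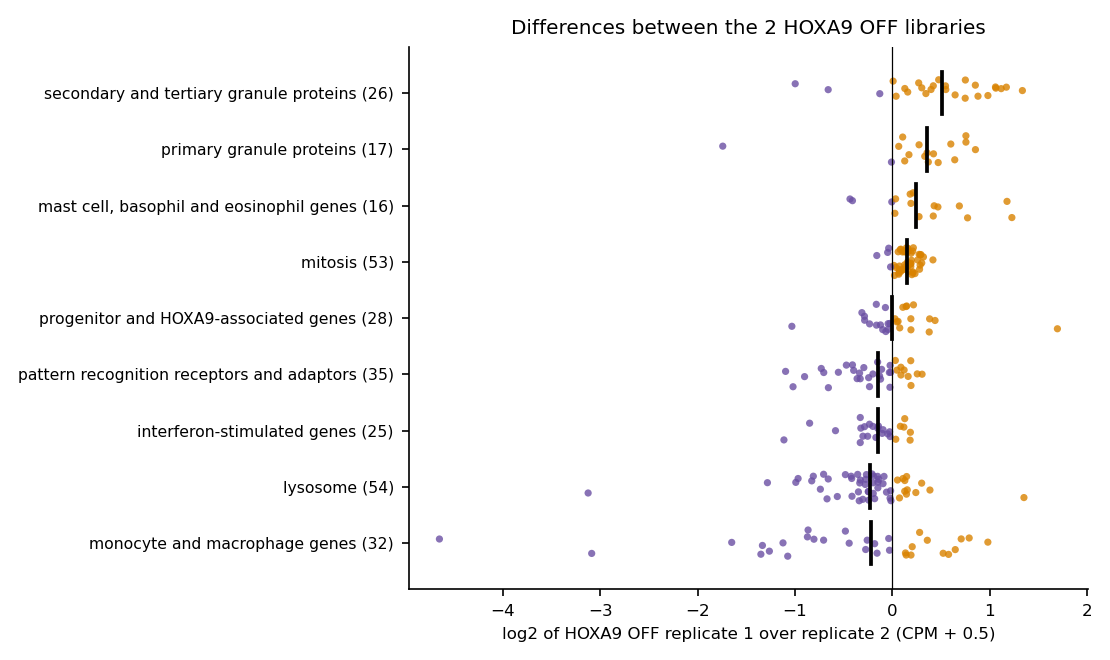
Log2 ratio of CPM in HOXA9 OFF replicate 1 over replicate 2 (0.5 added to each) for members of 9 lists with a mean of at least 5 CPM in HOXA9 OFF, 1 point a gene, orange where replicate 1 is higher and purple where replicate 2 is higher, with the median as a black bar. Granule genes lie mostly to the right of 0 (23 of 26 secondary and tertiary), and lysosome genes mostly to the left (42 of 54).

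Against CAF-1 OFF cells, which kept E2 and received IPTG, HOXA9 OFF cells differed to a like extent, with 2755 genes called (22.1%). This comparison uses the same HOXA9 OFF libraries, so its calls are not independent of those above. Of 89 named genes called against control, 79 were called in the same direction against CAF-1 OFF, 9 were not called (Bcl2l14, Ccnd1, Cd80, Gata1, Gfi1b, Hspa9, Ikzf2, Pmaip1 and Slc2a6), and Chaf1b, the target of the hairpin, was called in the other direction. Flt3 had 265 and 252 CPM in CAF-1 OFF, Csf1r 4.78 and 7.14 CPM, Cybb 1.82 and 2.84 CPM and Chi3l3 46.4 and 63.6 CPM. HOXA9 OFF differed from these by log2 fold changes of -5.92, 5.41, 4.01 and 5.32 (edgeR FDR 1.21e-04, 1.60e-04, 2.57e-03 and 1.15e-03). All 19 called growth factor and cytokine receptors and 36 of the 38 called lysosome genes were also called against CAF-1 OFF in the same direction. For ribosome biogenesis it was 15 of 26 and for interferon-stimulated genes 16 of 23. Over all genes called against control, 76.2% of increases and 72.5% of decreases were called in the same direction against CAF-1 OFF. Cebpe and Cebpb were among the transcription factors not called between HOXA9 OFF and CAF-1 OFF.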

How the data were processed

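Libraries were made by the authors from total RNA with a directional (stranded) kit and read on an Illumina sequencer. Per the labels and the methods of the study, reads were aligned to mouse mm9 with STAR and counted with HTSeq, which the methods describe as per transcript. The deposited values are raw counts, given per gene symbol. The annotation, strand setting and overlap mode of the counting were not given in the sources used here, so overlapping and antisense genes are uncertain, and reads that fit several places were left out, which under-counts near-identical copies. The 5 tally lines of each file, 6.87 to 8.26 reads in no gene per 100 gene reads in the 4 libraries compared, were kept out of all totals.

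Groups and replicate numbers came from the sample titles. The test was edgeR 4.0.16 in R 4.3.3 (filterByExpr by group, TMM, glmQLFit and glmQLFTest on all 6 libraries with group as the only term). Fold changes are HOXA9 OFF over control on the log2 scale, with the SE taken from the F statistic. An exact permutation of 2 against 2 libraries cannot go below p = 0.333, so no test over single values was used. Counts were also simulated over 12460 genes with the spread of these libraries (5 simulations, 200 changed genes each). In them, 57.0% of 2-fold and 82.4% of 4-fold changes were recovered and 7.48% of calls were false. The changed genes were few and split equally by direction, whereas 22% of genes were called here. These rates therefore need not hold for this comparison. Alternatives were DESeq2 1.42.0 and its size factors, scaling by library size, the edgeR exact test, other filters and cutoffs, a 4-library fit, a replicate block, and leaving out each library.

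The gene lists and the rule for named genes were chosen with earlier results of these data known. Named genes are the 4 markers, the 10 largest increases and 10 largest decreases with at least 5 CPM in the higher group and no overlap between groups, in each list the 3 called members of at least 5 CPM with the largest change, the 1 with the largest change the other way and the most abundant member not called, the 5 called genes with the most counts each way, and Hoxa9 and Chaf1b, 111 in all. Further list members were named for their known roles after their values were seen. Coordinates are 1-based, from GENCODE vM1 on NCBIM37, and none are given for chromosome 18. Promoter starts came from 1 transcript a gene, protein coding where there was one.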

Additional observations from a re-analysis of the deposited data

Results flagged for a closer look

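Reads in no annotated gene lie outside every comparison of the report. Per 100 reads counted in genes there were 7.84 and 8.26 of them in HOXA9 OFF, above both control libraries at 6.87 and 7.15, and 5.95 and 7.30 in CAF-1 OFF. They were looked at again because they exceeded the control level in both HOXA9 OFF libraries. The excess is small, was not tested with 2 libraries a group, and where these reads fall was not analysed here.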

How the results depend on the processing

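The 2740 calls of the main comparison (1622 increased, 1118 decreased) stayed within 1.5 times that number with DESeq2, the exact test, DESeq2 size factors, library size alone, either filter, the 4-library fit, a relaxed FDR and the replicate block, and no called gene changed sign in these. Library size alone took the share of increases among calls from 59.2% to 50.4%, with a shift of -0.084 in the median log2 fold change. With at least 2-fold and an FDR under 0.01 there were 987 calls, 707 increased and 280 decreased, and without a fold minimum there were 1720 decreases. Leaving out each library in turn gave 1602 to 2128 calls, 1006 to 1226 of them increased and 596 to 911 decreased, with the lowest number of calls without control replicate 2. Among named genes, 68 of 89 calls were kept without each library in turn, and 35 fold changes moved by over 1.5 times. Signs turned for 5 named genes, none of them called. Scaling by library size gave -0.055 for Cebpa and -0.021 for Tfdp1. Leaving out each library gave -0.089 to 0.14 for Cebpa, -0.24 to 0.54 for Mmp8, -0.71 to 0.12 for Mcm6, -0.11 to 0.11 for Top2a and -0.058 to 0.17 for Tfdp1. The cause was not tested.

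Replicate numbers are shared by the groups, but 2 pairs are too few to show that they pair cultures. Same-numbered deviations correlated at 0.456 across genes. With the replicate number as a block there were 1588 increases and 1092 decreases, with 2594 of the 2740 calls kept, and Ifitm3, Ccnd1 and Chaf1b lost their calls. A fit without 1 library leaves a lone library that is assumed to vary like the other groups. At these depths a gene near 3 counts in 1 group has a fold change known only to within its counting interval.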

Other observations

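The genes of serine, glycine and one-carbon metabolism, looked up after Psat1 appeared among the decreases, were lower as a group. Of 17 tested, 10 fell and 0 rose, with a median log2 fold change of -0.91. Phgdh, the enzyme that opens serine synthesis, fell by 1.19 on the log2 scale, Psat1 by 1.27, Shmt2, which makes glycine in mitochondria, by 1.03 (all called by edgeR), while Psph was at -0.98 without passing the test. Genes for amino acid supply that are known to respond to ATF4 showed 10 decreases and 1 increase among 19 tested (median -0.71). Slc7a11, the cystine transporter, fell by 2.00, Trib3 by 1.97 and Asns, asparagine synthetase, by 0.79, and Cebpb rose by 0.74. Of the 19, 18 had a negative value, and Atf4 itself was at -0.43, not called. Cytosolic aminoacyl-tRNA synthetases had 5 decreases among 20 tested, 19 of them with a negative value (median -0.50).

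Mitochondrial chaperones and import factors, looked up after Hspa9 appeared among the decreases, had 24 of 24 tested members with a negative value and 12 decreases (median -0.62), among them Hspe1 (-1.0), Lonp1 (-0.90), Hspa9 (-0.87) and Hspd1 (-0.78). Genes of the actin cytoskeleton, looked up after Actb and Tmsb4x, went the other way, with 20 increases and 0 decreases among 43 tested and a median of 0.55. Myo1f, a myosin of myeloid cells, rose by 1.91, Gsn, gelsolin, by 1.37 and Myh9, non-muscle myosin, by 1.10, while Cfl1 and Pfn1 were at -0.03 and -0.05. All these lists were chosen after values were seen and are given as descriptions with no test of the lists, beside 13% of all genes tested that rose and 8.97% that fell.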
